A study of Mus musculus with 6 samples.

Results

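The transcripts described here belong to MHC class I antigen presentation. They were H2-K1 and H2-D1 (class I heavy chains), B2m (the light chain), Tap1, Tap2 and Tapbp (peptide transport and loading), Nlrc5 (a transactivator of class I genes), and Psmb8, Psmb9 and Psmb10 (the catalytic subunits of the immunoproteasome). Rows were taken by gene symbol, using the transcript cluster with the highest mean over the 6 arrays. A row was found for 9 of the 10 genes, among 27365 gene symbols measured in all. No row read here carried the symbol H2-K1. Each of the 9 genes had a single cluster, annotated as crosshyb_type 1, the class for probes that match a single transcript.

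Primary adipocytes from mouse inguinal fat, a subcutaneous white depot, were fully differentiated in culture and then kept for 12 h with 50 µM kynurenic acid or with PBS, the vehicle control. Each treatment was measured on 3 Affymetrix MoGene 2.0 ST arrays, and no genotype, strain or age is given in the labels. The titles call the replicates technical and do not name separate cultures or animals, so the p-values measure only the spread between these arrays. Kynurenic acid is a product of tryptophan breakdown, and the comparison asks which transcripts differed after acute exposure to it.

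Class I molecules display peptides from inside the cell to cytotoxic T cells. The immunoproteasome cuts proteins into peptides, the Tap1-Tap2 transporter carries these into the endoplasmic reticulum, and tapasin, encoded by Tapbp, holds the transporter next to an empty heavy chain paired with beta-2 microglobulin. Nearly all nucleated cells, adipocytes among them, carry class I molecules, and interferons raise the transcription of most of these genes, in part through IRF1 and, for interferon gamma, NLRC5.

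Of the 9 genes, 6 lie on chromosome 17 within or beside the MHC, Nlrc5 and Psmb10 lie on chromosome 8, and B2m lies on chromosome 2. Coordinates of clusters are those of the array annotation on mm10. All 9 were matched by Entrez identifier to RefSeq genes of GRCm38.p6, the same assembly, and 8 of the 10 symbols had a promoter in the RefSeq table. Tap2 and Nlrc5 had none. The promoter stretches below are shown because that of B2m holds an interferon-stimulated response element and a CCAAT box, because Tap1 and Psmb9 share one, and because H2-K1 has no row of values here. Among exact matches to the motif letters searched, the last 2 stretches hold only a CCAAT box. The first is the run of 250 bases upstream of the B2m start at chr2:122147437-122147686, plus strand. The next is the whole run of 225 bases between the divergent starts of Psmb9 and Tap1 at chr17:34187331-34187555, on the strand of Tap1. The last is the run of 250 bases upstream of an H2-K1 start in the promoter table, at chr17:34000348-34000597, minus strand. The RefSeq gene record of H2-K1 reaches beyond this run, to 34000619. Sequences are from RefSeq (GRCm38.p6), and capitals mark matches to the motifs named after them.
B2m: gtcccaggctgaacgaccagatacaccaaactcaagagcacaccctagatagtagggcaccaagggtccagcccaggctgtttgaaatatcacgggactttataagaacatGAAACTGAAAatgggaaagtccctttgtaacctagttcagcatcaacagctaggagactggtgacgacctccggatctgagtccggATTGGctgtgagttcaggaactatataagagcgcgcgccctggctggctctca
Tap1 and Psmb9: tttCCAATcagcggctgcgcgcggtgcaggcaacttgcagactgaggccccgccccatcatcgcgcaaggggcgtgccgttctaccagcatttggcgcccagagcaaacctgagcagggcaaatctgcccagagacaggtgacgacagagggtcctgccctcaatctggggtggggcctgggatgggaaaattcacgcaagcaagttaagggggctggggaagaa
H2-K1: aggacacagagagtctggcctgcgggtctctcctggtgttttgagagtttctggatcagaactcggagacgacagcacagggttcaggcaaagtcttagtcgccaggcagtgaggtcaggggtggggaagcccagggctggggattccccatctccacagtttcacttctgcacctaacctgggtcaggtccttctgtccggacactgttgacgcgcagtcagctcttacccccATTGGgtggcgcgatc

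The motifs searched on both strands were the interferon-stimulated response element (GAAA, any 2 bases, GAAA), the gamma-activated site TTCNNNGAA and the CCAAT box. No overlap between matches to different motifs was found in the stretches shown. In the 250 bases upstream of the start, the interferon-stimulated response element was found for 1 of the 8 genes with a promoter, B2m, and in 2.98% of all 32851 promoter windows of that length. The gamma-activated site was found for 1 of 8, Psmb8, and in 7.02% of all promoters. The CCAAT box was found for 6 of 8 (B2m, H2-D1, H2-K1, Psmb9, Tap1 and Tapbp) and in 33.85% of all promoters. Tap1 and Psmb9 count the same box, which lies at bases 4 to 8 of the shared run. A match is a description of these letters, and the arrays hold no measurement of binding. Only these exact letters were searched, so a stretch without a match, that of H2-K1 included, may still hold an element of another form.

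Array values were deposited as log2 RMA levels, and a difference of 2 such values is a log2 change. Levels of different clusters depend on their probes and were not set against each other. All 9 genes read above the average of 23 antigenomic sets, probes without a target in the genome (3.58 to 3.91 log2) on all 6 arrays. This average was 3.759 log2 on PBS array 1, 3.584 on array 2 and 3.75 on array 3. After kynurenic acid it was higher on each array, at 3.877, 3.7635 and 3.907 in the same order. The brightest of these sets read 6.52 to 6.89 log2 under PBS, but 6.93 to 7.26 after kynurenic acid. Whether this difference in background enters the changes of dim genes was not tested. Since these sets reach up to 7.26 log2, B2m, Tapbp and Psmb10 were the 3 genes brighter than every background set on every array. H2-D1 and Nlrc5 were outshone by 8 and by 8 to 9 of the 23 sets, Tap2 by 6 to 8 and Psmb9 by 6 to 7. Depending on the array, Tap1 was outshone by 0 to 6 sets and Psmb8 by 0 to 5. Pearson correlations between arrays lay between 0.993 and 0.996 across genes, which are not independent replicates.

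Array 2 of both treatments stood apart in interferon-stimulated transcripts. Means over 10 such genes, as deviations from their 6-array mean, were -0.17, 0.79 and -0.27 log2 on PBS arrays 1 to 3 and -0.34, 0.49 and -0.49 on kynurenic acid arrays 1 to 3. The changes of the 9 genes are therefore also given without array 2 of both groups.

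No gene of the class I pathway passed the test between kynurenic acid and PBS. The largest difference was -0.18 log2, for Tap1, and the median over the 9 genes was -0.020 log2, with 4 above 0 and 5 below, beside a median of 0.0067 over all genes. Without array 2 of both groups the median of the 9 was -0.025. By limma with Benjamini-Hochberg adjustment, 0 of the 9 genes and 0 of all 27365 genes (0%) had an adjusted p below 0.05. At an unadjusted limma p below 0.05 stood 0 of the 9, beside 9.73% of all genes. The 3 arrays of a treatment were free of overlap with those of the other in 0 of the 9, beside 14.8% of all genes (7.16% higher and 7.62% lower with kynurenic acid). By Student's t-test with the same adjustment the count over all genes was also 0. The 95% intervals of the 9 changes together ran from -0.49 to 0.30 log2, that is from 1.4-fold lower to 1.23-fold higher. In bulk RNA, fewer cells of a type and less RNA per cell cannot be told apart.

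**Figure D1:**
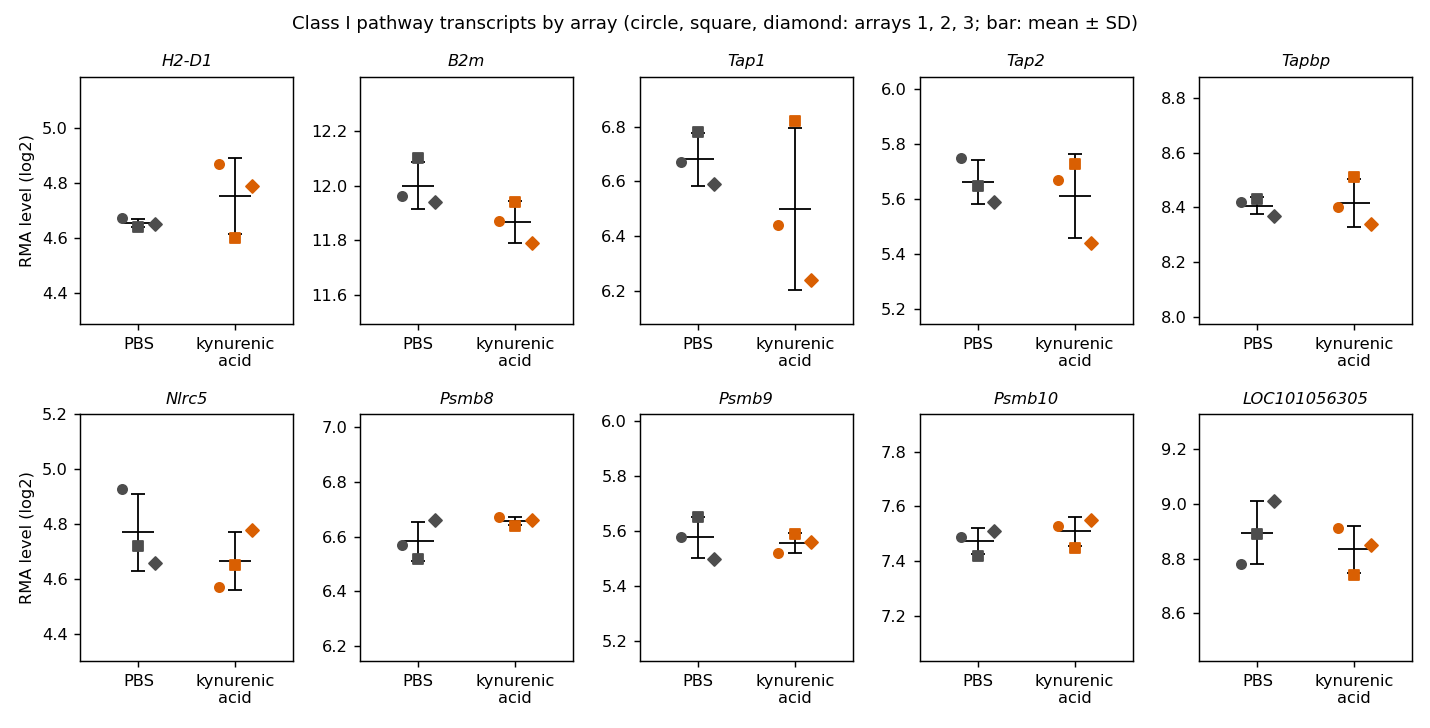
RMA level (log2, vertical axis, 0.9 log2 tall in each panel) of each class I pathway transcript on the 3 PBS arrays (grey) and the 3 kynurenic acid arrays (orange), with circles, squares and diamonds for arrays 1, 2 and 3 and bars for the mean ± SD. The 2 treatments overlap in each panel, and Tap1 spreads widest, from 6.24 to 6.82 log2.

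Among the chains of the class I molecule, B2m had the smallest p of the 9 genes. B2m encodes beta-2 microglobulin, the light chain shared by class I molecules. It measured 11.96, 12.10 and 11.94 log2 on PBS arrays 1 to 3 and 11.87, 11.94 and 11.79 on kynurenic acid arrays 1 to 3. The kynurenic acid values were at or below the lowest PBS value, and kynurenic acid array 2 equalled PBS array 3. The change was -0.13 log2 (SE 0.083, 95% interval -0.32 to 0.054), with a limma adjusted p = 0.613. Without array 2 of both groups it was -0.12.

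H2-D1 encodes a classical heavy chain, which presents the peptide. It measured 4.67, 4.64 and 4.65 log2 with PBS and 4.87, 4.60 and 4.79 with kynurenic acid. Kynurenic acid arrays 1 and 3 lay above the PBS arrays and array 2 lay below them. The change was 0.10 log2 (SE 0.088, interval -0.10 to 0.30, limma, adjusted p = 0.725), and 0.17 without array 2 of both groups. With arrays left out it ran from 0.042 without kynurenic acid array 1 to 0.18 without kynurenic acid array 2. Its cluster of 21 probes is annotated to chromosome 17 from 35262730 to 35398839, a span of 136110 bases that touches 11 RefSeq genes, H2-Q1, H2-Q2 and H2-Q4 among them. The RefSeq H2-D1 gene covers 4404 bases of it, so how much of this value comes from H2-D1 transcripts was not tested.

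A cluster under the symbol LOC101056305, named as a K-D alpha chain-like class I antigen, lies on the minus strand of chromosome 17 at 33996012 to 34000333. The only RefSeq gene there is H2-K1, from 33996012 to 34000619. The cluster was not taken by the symbol rule and is given apart from the 9. It measured 8.78, 8.89 and 9.01 log2 with PBS and 8.91, 8.74 and 8.85 with kynurenic acid, with the groups overlapping. The change was -0.060 log2 (SE 0.089, interval -0.26 to 0.14, limma, adjusted p = 0.846).

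In the transport and loading step, Tap1 varied most between arrays. Tap1 encodes a subunit of the peptide transporter, on chromosome 17 from 34187553 to 34197225. It measured 6.67, 6.78 and 6.59 log2 with PBS and 6.44, 6.82 and 6.24 with kynurenic acid. Kynurenic acid array 2 was the highest of all 6 and kynurenic acid arrays 1 and 3 were the lowest. The change was -0.18 log2 (SE 0.14, interval -0.49 to 0.13), with an adjusted limma p of 0.682. Without array 2 of both groups it was -0.29 (adjusted p = 0.467).

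Tap2, its partner subunit, measured 5.75, 5.65 and 5.59 log2 with PBS and 5.67, 5.73 and 5.44 with kynurenic acid. Kynurenic acid array 3 was the lowest and the remaining values were mixed. Its change was -0.050 log2 (SE 0.097, interval -0.27 to 0.17, limma, adjusted p = 0.884), and -0.12 without array 2 of both groups. Tapbp, the gene of tapasin, measured 8.42, 8.43 and 8.37 log2 with PBS and 8.40, 8.51 and 8.34 with kynurenic acid. The kynurenic acid values enclosed the PBS values, and the change was 0.010 log2 (interval -0.17 to 0.19, limma, adjusted p = 0.975), and -0.025 without array 2 of both groups.

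The immunoproteasome subunits varied least. Psmb8, Psmb9 and Psmb10 had ranges over the 6 arrays of 0.15, 0.15 and 0.13 log2, beside a median range of 0.33 over all genes. Psmb8 encodes the chymotrypsin-like subunit that replaces Psmb5. It measured 6.57, 6.52 and 6.66 log2 with PBS and 6.67, 6.64 and 6.66 with kynurenic acid, so that PBS array 3 fell among the kynurenic acid arrays. Its change was 0.073 log2 (SE 0.075, interval -0.097 to 0.24, limma, adjusted p = 0.767), and 0.050 without array 2 of both groups.

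Psmb9, which replaces Psmb6, measured 5.58, 5.65 and 5.50 log2 with PBS and 5.52, 5.59 and 5.56 with kynurenic acid. All 3 kynurenic acid values lay inside the PBS range, and the change was -0.020 log2 (interval -0.19 to 0.15, limma, adjusted p = 0.948), and 0 without array 2 of both groups. Psmb10, which replaces Psmb7, measured 7.49, 7.42 and 7.51 log2 with PBS and 7.53, 7.45 and 7.55 with kynurenic acid, overlapping. Its change was 0.037 log2 (interval -0.13 to 0.21, limma, adjusted p = 0.892), and 0.040 without array 2 of both groups. Psmb9 and Tap1, whose starts face away from each other across the 225 bases printed above, had ranges over the 6 arrays of 0.15 and 0.58 log2. The Psmb9 cluster, annotated to 34181987 to 34187764 on the minus strand, runs past the start of Tap1 on the other strand.

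Nlrc5, the transactivator, lies on chromosome 8 at 94472763 to 94527272 in its cluster of 31 probes. It measured 4.93, 4.72 and 4.66 log2 with PBS and 4.57, 4.65 and 4.78 with kynurenic acid. PBS array 1 was the highest and the other values overlapped. Its change was -0.10 log2 (SE 0.098, interval -0.32 to 0.12, limma, adjusted p = 0.745), and -0.12 without array 2 of both groups.

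**Figure D2:**
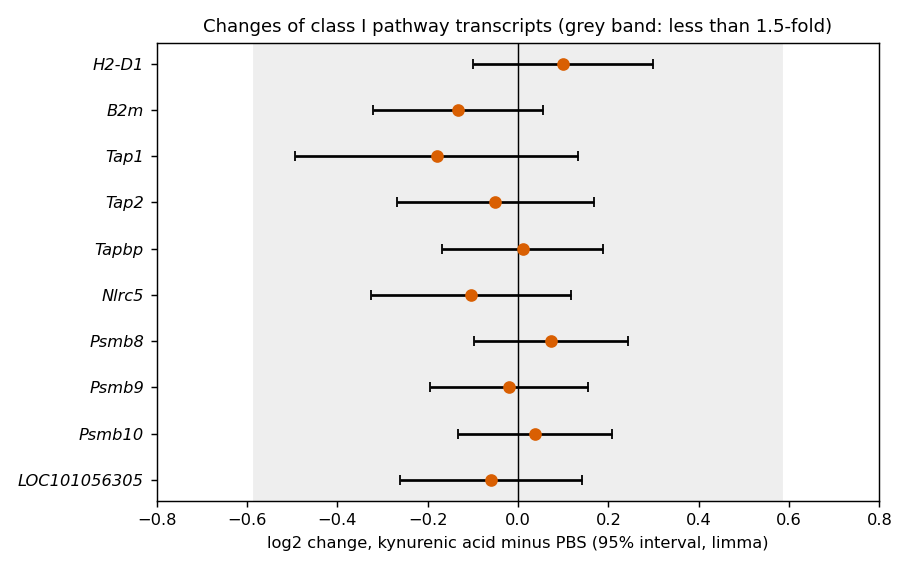
Log2 change of each transcript (horizontal axis, kynurenic acid minus PBS, points) with its 95% interval from limma (bars), over a grey band of less than 1.5-fold in either direction. Each interval holds 0 and stays inside the band, and the widest is that of Tap1 from -0.49 to 0.13 log2.

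In the authors' deposited table, the signed folds of the linear group means had the same direction for each of the 9 genes. They were -1.12 for Tap1 and -1.10 for B2m on the lower side and 1.08 for H2-D1 on the higher side. The deposited q-values of the 9 genes lay between 0.536 and 0.741, beside a smallest q of 0.483 over all clusters in the authors' deposited table.

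The difference between array 2 and the other arrays was smaller in the class I genes than in the interferon-stimulated genes. Over the 10 interferon-stimulated genes, array 2 exceeded the mean of arrays 1 and 3 by 1.01 log2 with PBS and by 0.91 with kynurenic acid. The same difference averaged 0.017 and 0.065 log2 over the 9 class I pathway genes. For Tap1 it was 0.15 and 0.48, and for B2m 0.15 and 0.11, positive in both groups. Psmb9, at 0.11 and 0.050, and Tapbp, at 0.035 and 0.14, were also positive in both. For H2-D1 the difference was -0.020 and -0.23, for Psmb10 -0.080 and -0.090, and for Psmb8 -0.095 and -0.025. Nlrc5, at -0.075 and -0.025, was also negative in both, and Tap2 was mixed, at -0.020 and 0.175. The mean over the 9 thus averages values of both signs. For Stat2, a transducer of type I interferon signals, the difference was 0.74 and 0.73. The replicate numbers stand for no shared batch in the labels, and the part of the array 2 signal in the class I values was not tested.

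**Figure D3:**
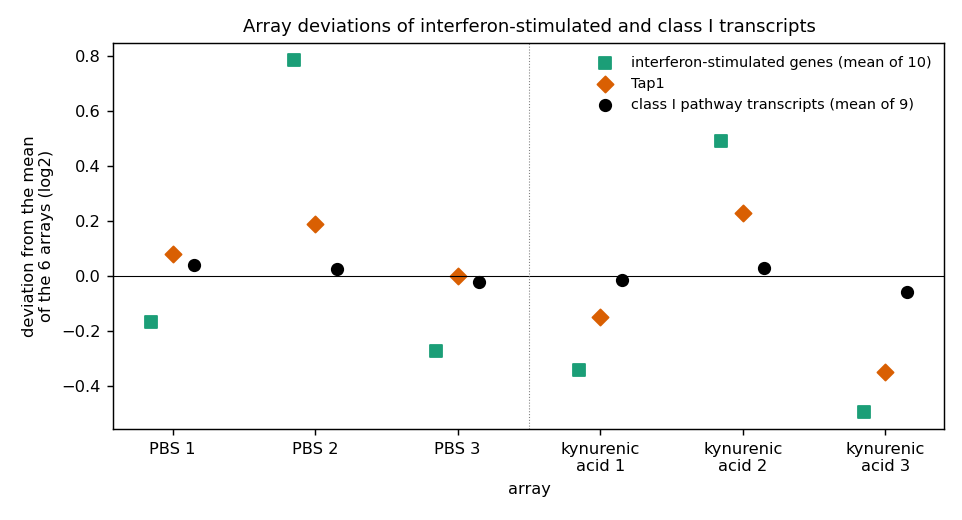
Deviation from the mean of the 6 arrays (log2, vertical axis) on each array (horizontal axis) for the mean of 10 interferon-stimulated genes (squares), Tap1 (diamonds) and the mean of the 9 class I pathway genes (circles). The squares stand at 0.79 and 0.49 on array 2 of PBS and kynurenic acid, while the circles stay between -0.058 and 0.041 on all arrays.

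The genes whose array profile lay closest to the mean profile of the 9 were Sppl2a, Slamf9, Rad51c, Flcn and Wdr89. The root-mean-square difference between deviations over the 6 arrays was 0.062 to 0.066 log2 for these 5, beside a median of 0.146 over 6843 genes above background with a range of at least 0.3 log2. The mean profile of the 9 spans 0.099 log2, so this likeness is that of nearly flat profiles.

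Other class I heavy chain genes showed differences of both signs, and none passed the test. These include the nonclassical H2-Q, H2-T and H2-M genes and related molecules such as Mr1. Of 23 listed, 20 were measured, with a median change of -0.038 log2, and 0 had an adjusted limma p below 0.05. This median turned to 0.014 without kynurenic acid array 3 and to 0.0033 without PBS array 2, and it was -0.14 over genes past the 60th percentile filter. At an unadjusted p below 0.05, 2 were higher and 4 lower, beside 4.7% and 5.03% of all genes. The higher ones were H2-Q7 and H2-M9, the latter below the background mean, and the lower ones were H2-Q4, H2-Q6, Mr1 and H2-K2. H2-Q7, H2-M9 and H2-K2 were chosen after their values were seen. H2-Q4 measured 5.88, 5.93 and 5.89 log2 with PBS and 5.26, 5.59 and 5.33 with kynurenic acid, all 3 below the PBS arrays. Its difference was -0.51 log2 (SE 0.097, limma, adjusted p = 0.471), from a cluster of crosshyb_type 3, whose probes also match other transcripts.

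Mr1, which presents vitamin B metabolites to MAIT cells, measured 9.70, 9.85 and 9.70 log2 with PBS and 9.48, 9.50 and 9.34 with kynurenic acid. The groups did not overlap, and the difference was -0.31 log2 (SE 0.085, limma, adjusted p = 0.471). H2-Q6 measured 5.65, 5.83 and 6.01 log2 with PBS and 5.50, 5.52 and 5.40 with kynurenic acid, also without overlap, at -0.36 log2 (limma, adjusted p = 0.471). H2-Q7 lay the other way, with 4.48, 4.58 and 4.60 log2 with PBS and 4.63, 4.95 and 4.79 with kynurenic acid (limma, adjusted p = 0.501). H2-Q genes are close copies of each other, so their clusters may share signal, also where annotated as crosshyb_type 1.

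Genes that load, trim and fold class I molecules had a median change of -0.088 log2 over 12 genes, 10 of them below 0, and -0.050 without kynurenic acid array 3. With another scaling this median was -0.125 after centring arrays on their medians and -0.047 after cyclic loess. Of all 27365 genes, 12896 lay below 0. At or above the background mean were 16442 of all genes, and all 12 of the list. None of the 12 had an adjusted or an unadjusted limma p below 0.05. The groups did not overlap for 1 of the 12 on the higher side and 4 on the lower side, Pdia3 among the latter. Over all genes these shares were 7.16% and 7.62%. Erap1, the aminopeptidase that trims peptides in the endoplasmic reticulum, differed by -0.14 log2 (interval -0.35 to 0.075). Pdia3, the disulfide isomerase of the loading complex, differed by -0.13 (interval -0.29 to 0.039), and Hspa5, a general chaperone, by -0.11 (interval -0.29 to 0.064).

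Proteasome partners had a median change of -0.053 log2 over 8 genes, and 0 passed the adjusted limma test. This median was -0.0083 without kynurenic acid array 3, -0.016 without PBS array 3 and 0.015 without array 3 of both groups. Pomp, the chaperone that assembles the proteasome core, measured 8.40, 8.44 and 8.24 log2 on the PBS arrays and 8.0, 8.15 and 7.93 on the kynurenic acid arrays, which all lay lower. Its difference was -0.33 log2 (SE 0.092, limma, adjusted p = 0.471). Psmb5, the constitutive counterpart of Psmb8, measured 8.12, 7.94 and 8.20 log2 with PBS and 8.30, 8.21 and 8.39 with kynurenic acid, all of them higher. Its difference was 0.21 log2 (SE 0.094, limma, adjusted p = 0.51). Psme2, a subunit of the PA28 activator, differed by 0.17 log2 (interval -0.092 to 0.44) with groups that overlapped.

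Transcription factors and interferon signalling genes that act on class I promoters had a median change of -0.12 log2 over 23 genes, 18 below 0. This median was -0.057 without kynurenic acid array 3, -0.058 without PBS array 2 and -0.073 without PBS array 1. With another scaling it was -0.15 after centring arrays on their medians and -0.065 after cyclic loess. Of all 27365 genes, 12896 lay below 0. At or above the background mean were 16442 of all genes, and all 23 of the list. None passed the adjusted limma test, and 0 higher and 2 lower, Nfyb and Ifnar2, stood at an unadjusted p below 0.05, beside 4.7% higher and 5.03% lower of all genes. Ifnar2, a chain of the type I interferon receptor, was chosen after its values were seen and differed by -0.20 log2. Nfyb, a subunit of the NF-Y factor that binds CCAAT boxes, measured 5.55, 5.83 and 5.50 log2 with PBS and 5.27, 5.34 and 4.93 with kynurenic acid, all of them lower. Its difference was -0.45 log2 (SE 0.13, limma, adjusted p = 0.471). Irf9 and Stat2, parts of the complex that binds the interferon-stimulated response element, differed by -0.29 and -0.26 log2, with SD within groups of 0.26 to 0.45 log2. These SDs include the rise of array 2 above arrays 1 and 3 in both groups. That rise was 0.435 log2 with PBS and 0.505 with kynurenic acid for Irf9, and 0.74 and 0.725 for Stat2. The interferon-stimulated list had a median change of -0.27 log2 over 10 genes, from -0.52 without kynurenic acid array 2 to 0.12 without PBS array 2, and -0.24 without array 2 of both groups. Ifi44, Ifit1 and Usp18, with the most negative values, differed by -0.44, -0.38 and -0.29 log2, against SDs within groups of 0.55 to 1.04 log2. These SDs too include array 2, the highest array of both groups for each of these genes. Of 8 interferon ligand genes 3 were above the background mean, and Ifnl3, Ifna4 and Ifnl2 differed by 0.19, 0.15 and 0.14 log2, none past the adjusted limma test. The Ifnl2 cluster is of crosshyb_type 3, and Ifnl3 lay below the brightest background set on each array.

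**Figure D4:**
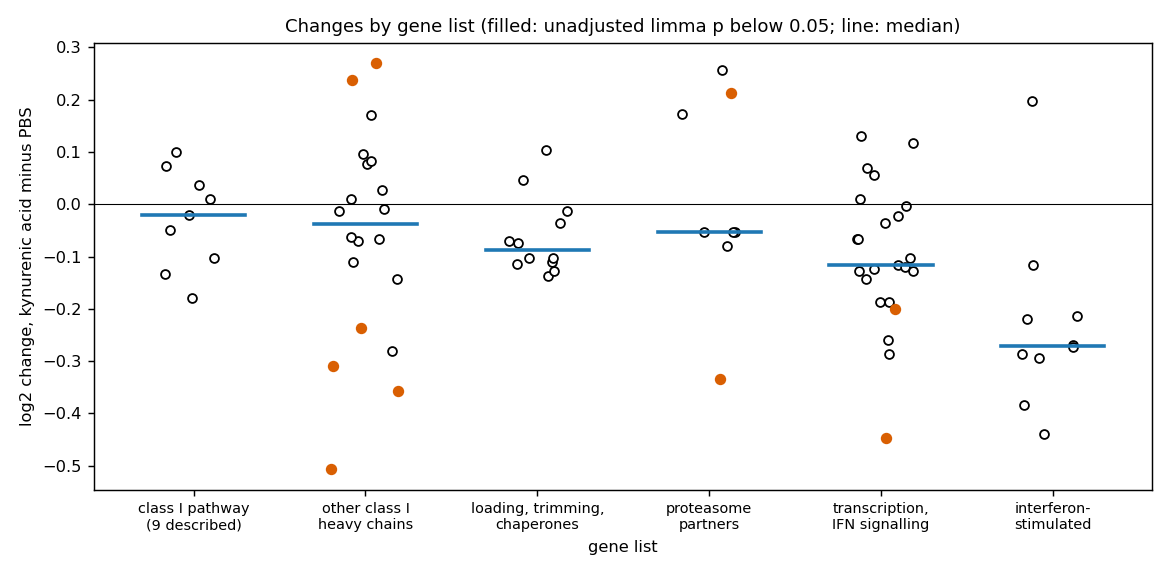
Log2 change (vertical axis, kynurenic acid minus PBS) of each measured gene of the class I pathway and of 5 related lists (horizontal axis), with filled points at an unadjusted limma p below 0.05 and a line at each median. The class I pathway genes lie between -0.18 and 0.10 log2, and H2-Q4 is the lowest point at -0.51.

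Markers of the cells in the culture were read beside these values, as means of log2 levels. Adipocyte markers were above the background mean in 9 of 9 genes, at 10.09 to 10.12 with PBS and 10.05 to 10.08 with kynurenic acid. Macrophage markers, whose cells carry class I molecules too, were above it in 10 of 10, at 7.0 to 7.31 with PBS and 6.97 to 7.23 with kynurenic acid. Not all of these 10 were brighter than every background set. Cd163, Cd14 and Ptprc, with means of 4.55, 5.02 and 5.55 log2, lay below the brightest set on each array, while Cd68 and Lyz2 lay above it. Of 8 lymphocyte and 5 dendritic cell markers, 1 each was above the background mean, and the T cell genes Cd3e and Cd8a were below it. Dendritic cell markers stood at 3.41 to 3.54 with PBS and 3.58 to 3.71 with kynurenic acid, and lymphocyte markers at 3.45 to 3.58 and 3.56 to 3.62. The average of the background sets was higher on the kynurenic acid arrays too. Endothelial markers stood at 3.92 to 4.0 and 4.03 to 4.11, with 5 of 7 above background, and preadipocyte and fibroblast markers at 6.90 to 7.0 and 6.89 to 7.05, with 5 of 6 above it. In these lists 0 genes passed the adjusted limma test, and Cdh5, an endothelial cadherin, and Ncr1, a natural killer cell receptor, stood at an unadjusted p below 0.05, beside 9.73% of all genes. Both were chosen after their values were seen, with differences of 0.51 and 0.33 log2, and Ncr1 lay below the background mean. The part of these cells in the class I values was not tested.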

How the data were processed

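RNA of 6 samples was measured on Affymetrix MoGene 2.0 ST arrays. Per the file headers, the authors made the deposited log2 values with RMA (background subtraction, quantile normalization, median polish) in Expression Console, version 1.41 per the submitters' processing notes, on NetAffx build 34 and mm10. Quantile normalization hides a shift common to most transcripts. The authors' deposited table also holds linear group mean intensity values, a signed fold change, treated here as a score of direction and size, p-values of Student's t-test and q-values by a method not given in the sources used here.

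For a symbol with several clusters, the brightest by its 6-array mean was kept. Groups were taken from the titles and compared by limma 3.58.1 (R 4.3.3), two-sided, without covariates or a filter on dim genes, with Benjamini-Hochberg adjustment over 27365 genes and a threshold of 0.05. Intervals are 95% limma intervals. The number of arrays limits the precision, with a median half-width of 0.213 log2. The fit was tested on simulated data. Alternatives were another scaling, a filter on dim genes, another variance model or test, another cluster choice, the replicate number as a block and arrays left out. Of each related list, the 3 largest changes above background were named. The members and lists were chosen with earlier results of these data known.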

Additional observations from a re-analysis of the deposited data

How the results depend on the processing

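Under the 19 alternatives, 0 of the 9 class I pathway genes and 0 genes in all passed the adjusted test, by limma and by Student's t-test alike. Genes at an unadjusted p below 0.05 numbered 2663 at the main setting and 1506 to 3586 with arrays left out, and 1555 of 10946 at the filter at the 60th percentile. The median change of the 9 genes, -0.020 log2, was -0.057 after centring arrays on their medians, 0.0036 after cyclic loess, and ran from -0.058 without PBS array 3 to 0.025 without array 1 of both groups. It was 0.010 without PBS array 2, 0.017 without kynurenic acid array 3 and 0 without array 3 of both groups. Tapbp turned to -0.027 after centring and Psmb9 to 0.0036 after cyclic loess. With arrays left out, changes ran from -0.037 to 0.048 for Tapbp (-0.025 without array 2 of both groups), -0.060 to 0.017 for Psmb9, -0.12 to 0.037 for Tap2 (-0.11 without kynurenic acid array 2), -0.22 to 0.025 for Nlrc5 and -0.34 to -0.050 for Tap1. The cause of these turns was not tested. B2m, Tap1, H2-D1 and Psmb8 kept their direction wherever they were measured. H2-D1 and Nlrc5 had no value at the 60th percentile filter. The series matrix values differed from the main table by at most 0, so this alternative could not change any result. Each of the 9 genes had a single cluster, so another cluster choice could not change their log2 changes.

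With the replicate number as a block, the median stayed at -0.020 log2, 0 genes passed and 2919 stood at an unadjusted p below 0.05. Deviations of same-numbered arrays correlated at 0.037, 0.068 and 0.094 across genes, each higher than the pairs of unlike number (-0.070 to 0.0012), a hint from the data and not the design. Deviations were taken from the mean of each group, so positive values for some pairs force lower values for others. The low values of unlike pairs are thus no separate evidence. Correlations over all genes cannot settle whether the numbers mark pairs. The labels name no pairs, so the main fit left the arrays unpaired. With the block the SE was 0.099 for Tap1 and 0.090 for Nfyb, beside 0.14 and 0.13 in the main fit. For Nlrc5 it was 0.11, beside 0.098. Tap1 had an adjusted limma p of 0.562 with the block.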
